A study of Mus musculus with 18 samples.

Results

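Mt1, Mt2, Mtf1, Slc30a1 and Slc39a10, the metallothionein and zinc response genes described here, were measured in leukemia stem cells of the mouse. They are 5 of the 54347 genes in the count table, found by symbol, and all 5 passed the filter on low counts that left 12973 genes to test. The group was chosen by earlier mutant against wild-type values of the same mice, so the differences between the groups in these 5 genes are a description and carry no test. Metallothioneins are small, cysteine-rich proteins that bind zinc and copper and act as a store and buffer of these metals. In the mouse their genes are switched on by MTF1, a zinc-finger transcription factor that senses free zinc and binds metal response elements in promoters. MTF1 also raises Slc30a1, which encodes a zinc exporter of the plasma membrane, and lowers Slc39a10, which encodes a zinc importer.

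Marrow of C57BL/6JRj mice was the source, and flow cytometry gave 7000 cells per mouse at 30 days after leukemia induction. The labels name 5 Prx1-Cxcl12-mutant mice, numbered 6, 7, 8, 10 and 12, and 4 Prx1-Cxcl12-wild type mice, numbered 1 to 4, with 2 technical libraries each. Cxcl12 encodes a chemokine of marrow stromal cells, and the Prx1 promoter is active in the mesenchymal lineage from which such cells derive. All mice of both groups carried leukemia. The sources used here do not give the exact alleles, the leukemia driver, the sorting markers or the sex and age of the mice. The study's stated interest was the redox and energy balance that the niche sets in these cells.

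Total counts per mouse averaged 20734088 ± 4170598 in mutants (SD, n = 5) and 15160572 ± 2307737 in wild types (SD, n = 4), so the mutant libraries were deeper on average. Levels are CPM, the count of a gene scaled to a common library total, and a floor of 3 counts corresponds to 0.118 CPM in the deepest mouse and 0.255 CPM in the shallowest. Of 8 markers of myeloid leukemic progenitors, all present in both groups and none called, 7 had a log2 fold change below 0 and 1, Mpo, above 0. The myeloperoxidase gene Mpo was at 437 to 1962 CPM in mutants and 707 to 926 CPM in wild types. The receptor gene Kit was at 16.1 to 21.8 CPM in mutants and 23.5 to 27.4 CPM in wild types, without overlap, and Hoxa9 was at 173 to 235 CPM in mutants and 180.1 to 355 CPM in wild types. Of 6 T and NK cell markers, Cd3g, Cd4 and Ncr1 were at 0 in all 9 mice. In bulk RNA, fewer cells that express a gene and less RNA per cell cannot be told apart.

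The promoters of Mt2, Mt1 and Slc30a1, known targets of MTF1, are shown for the motif to which MTF1 binds. Each run is the strand of the gene, 5′ to 3′, from 250 bases before the RefSeq start of transcription, taken from RefSeq on GRCm38.p6, and the capitals mark each match to a metal response element core. The cores searched were TGCACNC and TGCGCNC, on both strands.
Mt2, chr8:94172368-94172667: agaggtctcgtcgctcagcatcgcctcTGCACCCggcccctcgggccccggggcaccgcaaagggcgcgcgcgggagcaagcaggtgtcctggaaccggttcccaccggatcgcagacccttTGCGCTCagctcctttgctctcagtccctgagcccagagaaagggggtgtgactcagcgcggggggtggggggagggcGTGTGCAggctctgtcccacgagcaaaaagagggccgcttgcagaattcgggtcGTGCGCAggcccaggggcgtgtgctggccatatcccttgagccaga
Mt1, chr8:94178839-94179138: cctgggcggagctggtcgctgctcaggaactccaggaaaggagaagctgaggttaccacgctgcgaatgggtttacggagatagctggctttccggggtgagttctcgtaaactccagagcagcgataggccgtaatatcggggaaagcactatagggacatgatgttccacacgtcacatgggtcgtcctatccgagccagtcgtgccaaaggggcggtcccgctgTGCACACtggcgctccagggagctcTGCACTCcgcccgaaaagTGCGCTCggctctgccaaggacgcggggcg
Slc30a1, chr1:191906531-191906830: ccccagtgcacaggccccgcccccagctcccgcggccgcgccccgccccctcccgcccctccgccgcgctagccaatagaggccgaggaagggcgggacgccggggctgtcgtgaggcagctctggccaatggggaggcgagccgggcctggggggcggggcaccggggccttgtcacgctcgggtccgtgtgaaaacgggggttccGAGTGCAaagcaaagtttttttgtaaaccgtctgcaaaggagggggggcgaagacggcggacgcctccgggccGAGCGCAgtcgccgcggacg

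The Mt2 window held 4 cores, the Mt1 window 3 and the Slc30a1 window 2. Of 32851 RefSeq promoter windows of this length, 25.7% held at least 1 core, 7.11% at least 2, 1.97% at least 3 and 0.517% at least 4. In Mt1 the 3 cores were grouped between positions -23 and 27 from the RefSeq start, all on the strand of the gene. In Mt2 they were spread from -223 to 11, with 2 on each strand. Both cores of Slc30a1 lay on the opposite strand, at -43 and 31. The windows of Mtf1 and both windows of Slc39a10 held no match to these letters, which says nothing of more distant sites. The Slc39a10 windows lie on chromosome 1 at 46925727 to 46926026 and 46853569 to 46853868. In GENCODE M21 that gene spans 46807544 to 46892852 on the minus strand. The first window thus lies outside it and the second inside, and neither covers its annotated 5′ end. The core of the antioxidant response element, TGACNNNGC, was found once in the Mt2 window, at -79 to -71 on the strand of the gene, and once in that of Slc30a1, at -82 to -74 on the opposite strand. It overlapped none of the metal response cores, and 12.4% of all windows held it. The windows were rich in G and C, at 67.7% in Mt2, 60.7% in Mt1 and 73.0% in Slc30a1. A match describes letters and is no evidence of binding. Positions are counted from the RefSeq starts, and other possible starts were not examined. Sites outside a window were not searched in any gene, so an element missing from a window may lie beyond it.

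**Figure D1:**
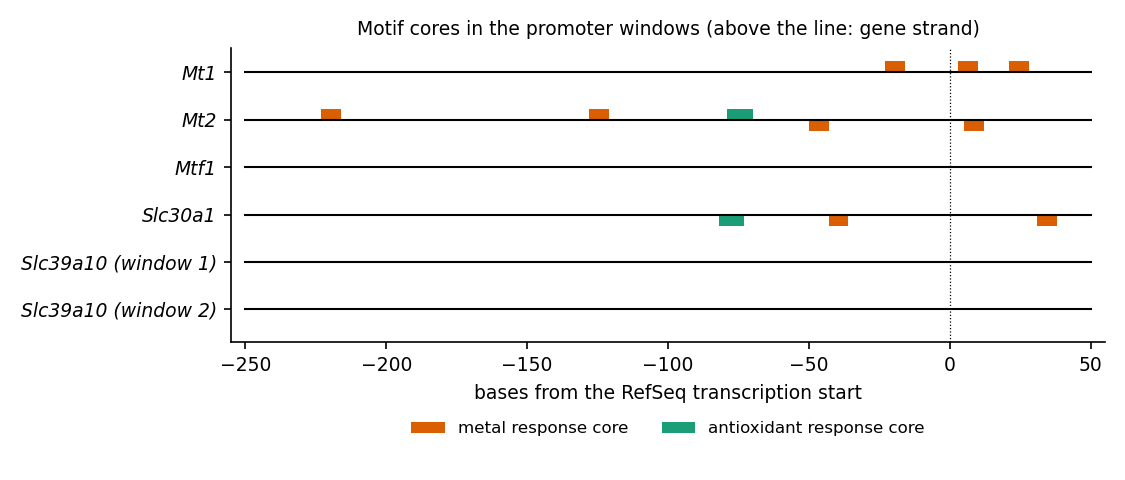
Positions of the metal response core (orange) and the antioxidant response core (green) in the 300-base promoter windows, with distance from the RefSeq transcription start in bases on the horizontal axis and one line per window. Blocks above a line lie on the strand of the gene and blocks below it on the other, with 4 metal response cores in Mt2, 3 in Mt1, 2 in Slc30a1 and none in the other 3 windows.

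Mtf1, the zinc sensor (ENSMUSG00000028890, GRCm38 chromosome 4, 124802104 to 124849800), stood at nearly the same level in both groups. Mutant mice 6, 7, 8, 10 and 12 had 62.7, 44.0, 65.4, 59.1 and 65.0 CPM, and wild-type mice 1 to 4 had 58.0, 55.7, 57.5 and 62.6 CPM. Mutant 7 was the lowest of the 9 mice, and the groups overlapped. The log2 fold change, mutant over wild type, was 0.018 (SE 0.11), with a 95% interval from -0.20 to 0.24. Per-mouse levels are CPM scaled by edgeR's TMM factors, which adjust for differences in library composition.

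Mt1 and Mt2 encode the metallothioneins that most tissues of the mouse express. They lie side by side on chromosome 8 in the same orientation, Mt2 (ENSMUSG00000031762) at 94172664 to 94173568 and Mt1 (ENSMUSG00000031765) at 94179082 to 94180327, with 5513 bases between them. Mt3 and Mt4, the other members of the family, lie just upstream in a cluster of 43131 bases. They are known from the brain and from stratified epithelia, and both had 0 counts in all 9 mice. Mt1 and Mt2 were read in every library.

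Mt2 was higher in every mutant mouse than in any wild-type mouse. Mutant mice 6, 7, 8, 10 and 12 had 3.58, 5.34, 4.55, 5.71 and 4.57 CPM, from 65, 133, 109, 105 and 77 counts. Wild-type mice 1 to 4 had 2.13, 0.831, 1.57 and 2.13 CPM, from 27, 14, 23 and 36 counts. The lowest mutant, mouse 6, stood above the highest wild types, mice 1 and 4. However, the 95% counting interval of mouse 6 was 2.76 to 4.56 CPM. That interval overlapped those of wild-type mouse 1 (1.41 to 3.10 CPM) and wild-type mouse 4 (1.49 to 2.95 CPM). The means were 4.75 ± 0.82 CPM in mutants (SD, n = 5) and 1.67 ± 0.62 CPM in wild types (SD, n = 4). The fold was 2.86, a log2 fold change of 1.52 (SE 0.27).

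Mt1 was read far more deeply, with between 7002 and 20093 counts per mouse. Mutant mice 6, 7, 8, 10 and 12 had 752, 762, 839, 808 and 574 CPM. Wild-type mice 1 to 4 had 553, 612, 705 and 539 CPM. Mutant 12 lay within the wild-type range and the other 4 mutants above it, so the groups overlapped. The means were 747 ± 103 CPM in mutants (SD, n = 5) and 602 ± 75.4 CPM in wild types (SD, n = 4), a log2 fold change of 0.31 (SE 0.12), or 1.24-fold. With the log2 total count added to the fit it was 0.12 (SE 0.16).

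The ratio of Mt2 to Mt1 counts was higher in every mutant than in any wild type. Per 1000 Mt1 counts, mutant mice 6, 7, 8, 10 and 12 had 4.76, 7.005, 5.42, 7.06 and 7.96 Mt2 counts. Wild-type mice 1 to 4 had 3.86, 1.36, 2.22 and 3.96. The groups did not overlap, with means of 6.44 ± 1.31 in mutants (SD, n = 5) and 2.85 ± 1.27 in wild types (SD, n = 4). Since Mt2 was chosen on this contrast and Mt1 differed less, the ratio largely restates the Mt2 difference and adds no support. The size of this ratio also depends on how well the 3′ end of each transcript is captured, so it is read only between mice. Within the groups, Mt1 and Mt2 showed little joint variation. After each group's mean was taken off, the Pearson r of Mt1 and Mt2 over the 9 mice was -0.16 on log2 CPM, and that of either with Mtf1 was -0.24 for Mt1 and -0.047 for Mt2. These are descriptions over few mice whose counting error for Mt2 is large.

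**Figure D2:**
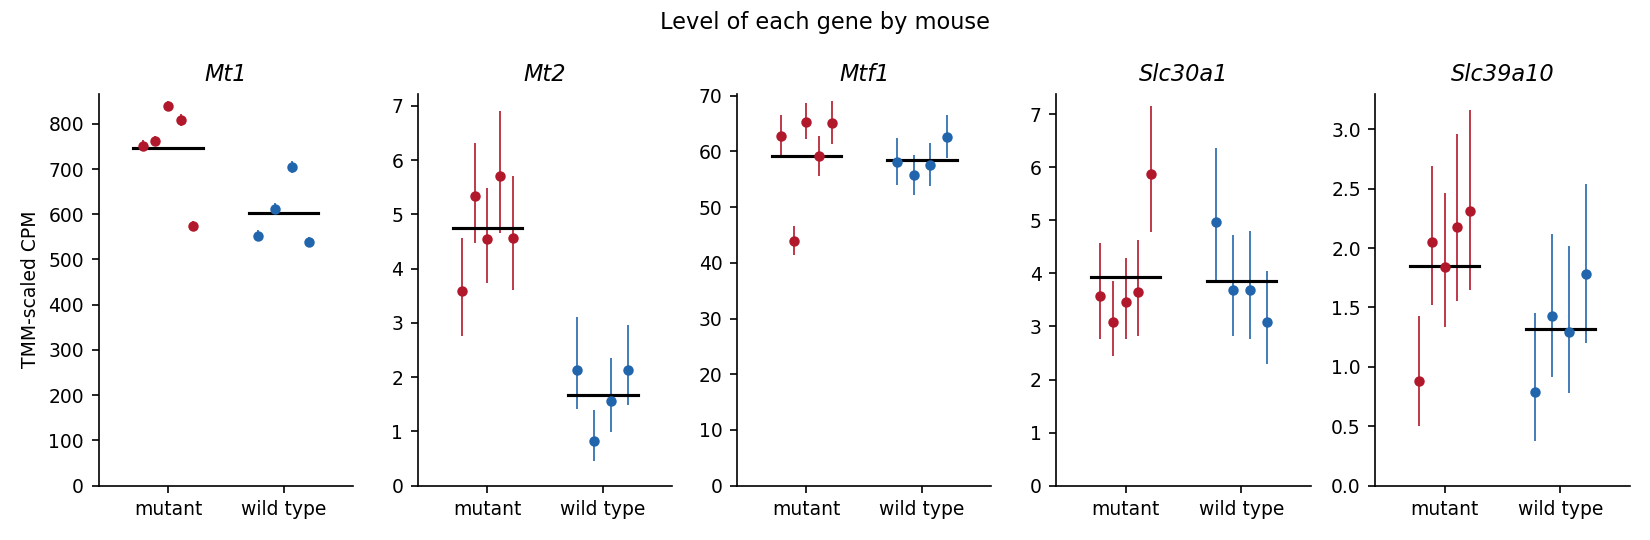
TMM-scaled CPM of Mt1, Mt2, Mtf1, Slc30a1 and Slc39a10 in each mouse, with mutant mice (red, n = 5) left of wild-type mice (blue, n = 4), both in order of mouse number. Thin bars are 95% counting intervals and black lines are group means. The groups stand apart in Mt2, at 3.58 to 5.71 CPM in mutants and 0.831 to 2.13 CPM in wild types, and overlap in the other 4 genes.

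Slc30a1, the zinc exporter (ENSMUSG00000037434, chromosome 1, 191906767 to 191913247), showed no such separation. Mutant mice 6, 7, 8, 10 and 12 had 3.58, 3.09, 3.47, 3.64 and 5.87 CPM, and wild-type mice 1 to 4 had 4.98, 3.68, 3.68 and 3.08 CPM. Mutant 12 was the highest of all mice and the other 4 mutants lay within the wild-type range. The log2 fold change was 0.027 (SE 0.22), with a 95% interval from -0.41 to 0.47 at 52 to 99 counts per mouse. A change of any size within that interval is therefore not excluded. The interval covers spread between mice as well as counting error. Without mutant 12 the log2 fold change was -0.16 (SE 0.19), and with the log2 total count in the fit it was 0.48 (SE 0.24).

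Slc39a10, the zinc importer (ENSMUSG00000025986, chromosome 1, 46807544 to 46892852, minus strand), was the most weakly counted, at 10 to 51 counts per mouse. Mutant mice 6, 7, 8, 10 and 12 had 0.881, 2.05, 1.84, 2.17 and 2.31 CPM. Wild-type mice 1 to 4 had 0.79, 1.43, 1.29 and 1.78 CPM. The groups overlapped through mutant 6, and the other 4 mutants lay above all wild types. The log2 fold change was 0.47 (SE 0.32), with a 95% interval from -0.16 to 1.10. It was 0.16 (SE 0.39) in library 1 of each mouse alone and 0.70 (SE 0.47) in library 2 alone.

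Across all genes, edgeR's quasi-likelihood test called 9 of 12973 genes at an adjusted p under 0.05, or 0.0694%, and 0 of the 5 members. At an unadjusted p under 0.05 there were 2 members, Mt1 and Mt2, both higher in mutants, where 4.96% of all genes were higher in mutants at that level and 9.85% passed it in either direction. DESeq2 called 1 member, Mt2, against 0.647% of the genes to which it gave an adjusted p. The groups did not overlap, with mutants higher, in 1 member, Mt2, and in 1.87% of all tested genes. The log2 fold change was above 0 in 5 of 5 members and in 6706 of 12973 genes, with medians of 0.31 over the members and 0.0089 over all genes. The members were selected on this contrast, so nothing is read from these counts.

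The summed levels of markers of other cells overlapped between the groups in every list. By edgeR 1 of these markers was called, where 0.0694% of all tested genes were. Itga2b, an integrin gene of megakaryocytes and early progenitors, fell to 0.38 to 1.01 CPM in mutants, against 2.02 to 3.08 CPM in wild types, with an edgeR adjusted p of 0.0427. The sum of the 5 megakaryocyte and platelet markers was 21.6 to 33.2 CPM in mutants and 30.2 to 41.1 CPM in wild types. Of the 3 tested, 1 was above 0 and 2 below in log2 fold change. The macrophage marker Adgre1 was not called, at 21.9 to 31.7 CPM in mutants and 34.3 to 46.3 CPM in wild types without overlap. Vcam1 of the same list overlapped, at 20.5 to 48.2 CPM in mutants and 21.8 to 34.1 CPM in wild types. Over all tested genes, the groups did not overlap in 519 of 12973, in either direction. Of the 2 tested macrophage markers 1 was above 0 and 1 below. The macrophage sum was 43.3 to 81.4 CPM in mutants and 58.4 to 74.7 CPM in wild types. The summed level of 8 mature neutrophil markers was 172 to 414 CPM in mutants and 404 to 922 CPM in wild types, a narrow overlap. Of these 8, 0 were called, with 5 below 0 and 3 above 0 in log2 fold change. The granule gene Camp was at 75.3 to 195 CPM in mutants and 281 to 550.3 CPM in wild types. Camp had the highest level of the 8 in wild types, so it weighs most in their sum. Ltf, another granule gene of the list, went the other way, at 9.24 to 19.98 CPM in mutants and 2.32 to 10.2 CPM in wild types. S100a8 overlapped, at 6.85 to 58.6 CPM in mutants and 9.47 to 31.8 CPM in wild types, and S100a9 overlapped too. The summed erythroid markers, with 0 called, were at 17.7 to 61.2 CPM in mutants and 6.81 to 52.9 CPM in wild types. All 7 tested erythroid markers were above 0, and the carbonic anhydrase gene Car2 stood at 2.67 to 4.02 CPM in mutants and 0.237 to 1.54 CPM in wild types, while the heme synthesis gene Alas2 stayed at 0 to 0.241 CPM in mutants and 0 to 0.119 CPM in wild types. The part of these markers, and of Kit, in the metallothionein values was not tested. With the log2 total count in the fit the Mt2 log2 fold change was 1.59 (SE 0.37).

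The 2 technical libraries of a mouse show the measurement error within a mouse. Levels by library are CPM of the library's own total, without TMM scaling. For Mt2 the 95% counting intervals of both libraries overlapped in 7 of 9 mice. The exceptions were wild-type mouse 1, at 4.71 CPM in library 1 (18 counts) and 1.13 CPM in library 2 (9 counts), and wild-type mouse 2, at 1.99 CPM in library 1 (13 counts) and 0.0976 CPM in library 2 (1 count). Both lie in the wild-type group. The first library of wild-type mouse 1 was the one wild-type library within the mutant range, which ran from 3.57 to 5.46 CPM in library 1. In library 2 the groups stood apart, at 3.48 to 5.64 CPM in mutants and 0.0976 to 1.77 CPM in wild types. Library 1 alone gave a log2 fold change of 1.02 (SE 0.32) and library 2 alone 2.00 (SE 0.46). With wild-type mouse 2 taken from its first library only, an alternative chosen after seeing the data, it was 1.29 (SE 0.21).

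Mt1 differed between the libraries of a mouse by more than counting error in 8 of 9 mice, the exception being wild-type mouse 3. Its sign differed by genotype in 8 of 9 mice. The second library was lower than the first in 4 of 5 mutants, all but mouse 6, with a ratio of library 2 to library 1 between 0.747 and 0.903, and it was higher in 4 of 4 wild types, with a ratio between 1.03 and 1.41. Mt1 stood apart between the groups in library 1, at 674 to 857 CPM in mutants and 463 to 651 CPM in wild types. In library 2 it overlapped, at 531 to 769 CPM in mutants and 618 to 679 CPM in wild types. The log2 fold change was 0.59 (SE 0.16) in library 1 and 0.058 (SE 0.14) in library 2. Among 1418 genes with a mean of at least 100 CPM, 4.87% had a gap between the log2 fold changes of both libraries as large as this 0.53, in either direction. The labels do not say how the first and second libraries of a mouse were made or run.

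**Figure D3:**
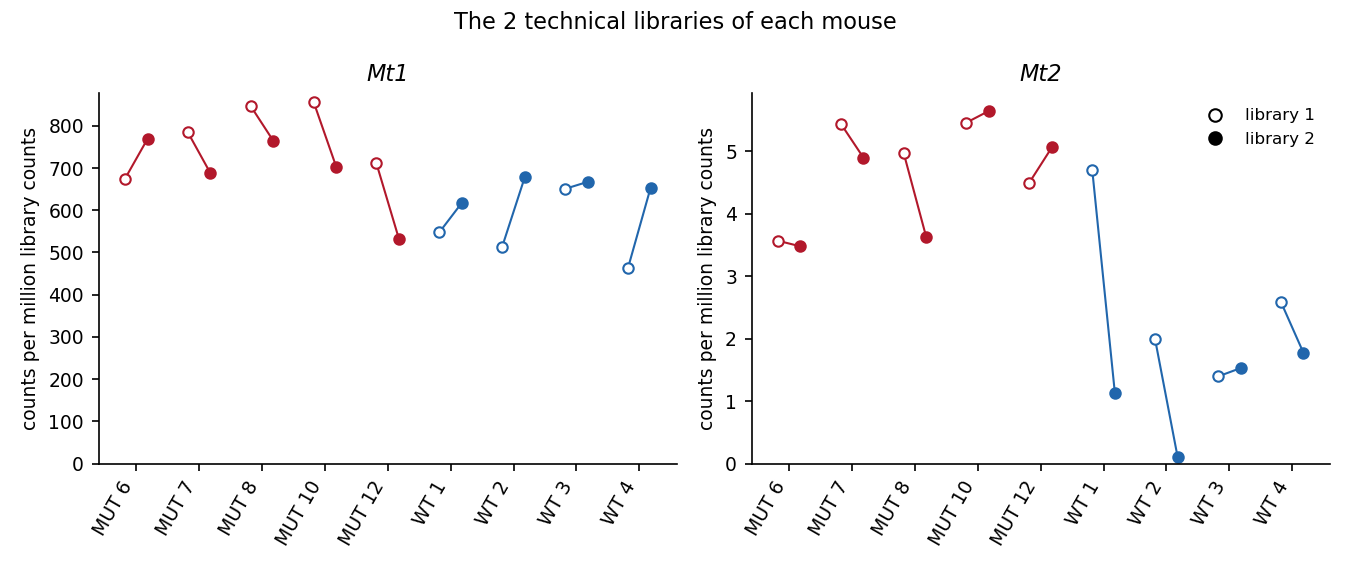
Unscaled CPM of the library total for Mt1 (left) and Mt2 (right) in library 1 (open circles) and library 2 (filled circles) of each mouse, joined by a line, with the 5 mutant mice (MUT, red) left of the 4 wild-type mice (WT, blue). Mt1 falls from library 1 to library 2 in 4 of 5 mutants and rises in 4 of 4 wild types, and the Mt2 values of wild-type mice 1 and 2 are far lower in library 2.

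Mtf1 gave counting intervals that overlapped between libraries in 6 of 9 mice, Slc30a1 in 9 of 9 and Slc39a10 in 8 of 9. The exception in Slc39a10 was mutant 12, with 0.899 CPM in library 1 and 3.55 CPM in library 2. In Slc39a10 the ratio of library 2 to library 1 ran from 0.383 to 3.95 over the 9 mice.

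Read in the sense direction, the transcripts of these genes shared little sequence with those of other genes. Only the sense strand of each transcript was searched, so words shared with antisense transcripts were not looked for. Of the 31-base words in the annotated Mt1 transcripts, 0 of 1273 occurred in a transcript of another gene, and Mt1 and Mt2 shared 0 words. Mtf1 and Slc30a1 also shared 0 with other genes. For Mt2 it was 3 of 573, shared with Pip5k1a, and for Slc39a10 98 of 6061, or 1.62%. Mt2 overlaps the antisense gene Gm45774, which held at most 1 count in any mouse, and Slc30a1 overlaps the antisense gene 1700034H15Rik, with at most 8. Mtf1 overlaps the protein-coding gene 1110065P20Rik on the opposite strand, which had 366 to 553 counts in mutants and 239 to 363 counts in wild types. Whether counting used strand is not given in the sources used here, so reads of Mtf1 and this neighbour may not be fully separated.

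Of the other zinc transporter genes none was called between the groups by edgeR. An unadjusted p under 0.05 was found in 1 of them, against 9.85% of all tested genes. SLC30 proteins move zinc out of the cytosol and SLC39 proteins move it in. Of 24 further genes in the list of zinc transporters and metallothioneins, 13 were tested, of which 7 were above 0 and 6 below in log2 fold change, with a median of 0.042; DESeq2 called Slc39a8. Slc30a5, Slc30a6 and Slc30a7, which load zinc into the secretory pathway, had log2 fold changes of 0.20 (SE 0.12), 0.23 (SE 0.12) and 0.11 (SE 0.12), the last of these named after its value was seen. The intestinal importer gene Slc39a4 had 5.61 ± 1.95 CPM in mutants (SD, n = 5) and 8.06 ± 2.84 CPM in wild types (SD, n = 4), a log2 fold change of -0.53 (SE 0.29) and an edgeR adjusted p of 0.574. Among genes that did not pass the filter, Mt3, Mt4, Slc30a2, Slc30a4, Slc30a8, Slc30a10 and Slc39a12 had 0 counts in all mice.

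Slc39a8 had the largest log2 fold change among the 13 tested genes of this list. It encodes ZIP8, an importer of zinc and manganese that monocytes and macrophages are known to use. Mutant mice 6, 7, 8, 10 and 12 had 7.27, 7.59, 7.89, 8.10 and 6.46 CPM, and wild-type mice 1 to 4 had 3.55, 3.44, 5.45 and 4.56 CPM. All mutants were above all wild types. The means were 7.46 ± 0.64 CPM in mutants (SD, n = 5) and 4.25 ± 0.94 CPM in wild types (SD, n = 4), with a log2 fold change of 0.81 (SE 0.17). It did not pass in edgeR, at an adjusted p of 0.146 with all mice, and from 0.112 to 0.982 over the other edgeR settings, while DESeq2 gave an adjusted p of 0.00649. It was higher in both libraries taken alone, by 0.70 (SE 0.26) and 0.92 (SE 0.23) on the log2 scale. Slc39a8 was the 1 gene of the 13 whose groups did not overlap and the 1 at an unadjusted p under 0.05. Over all tested genes, the groups did not overlap in 519 of 12973, in either direction. An unadjusted edgeR p under 0.05 was found in 9.85% of them.

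**Figure D4:**
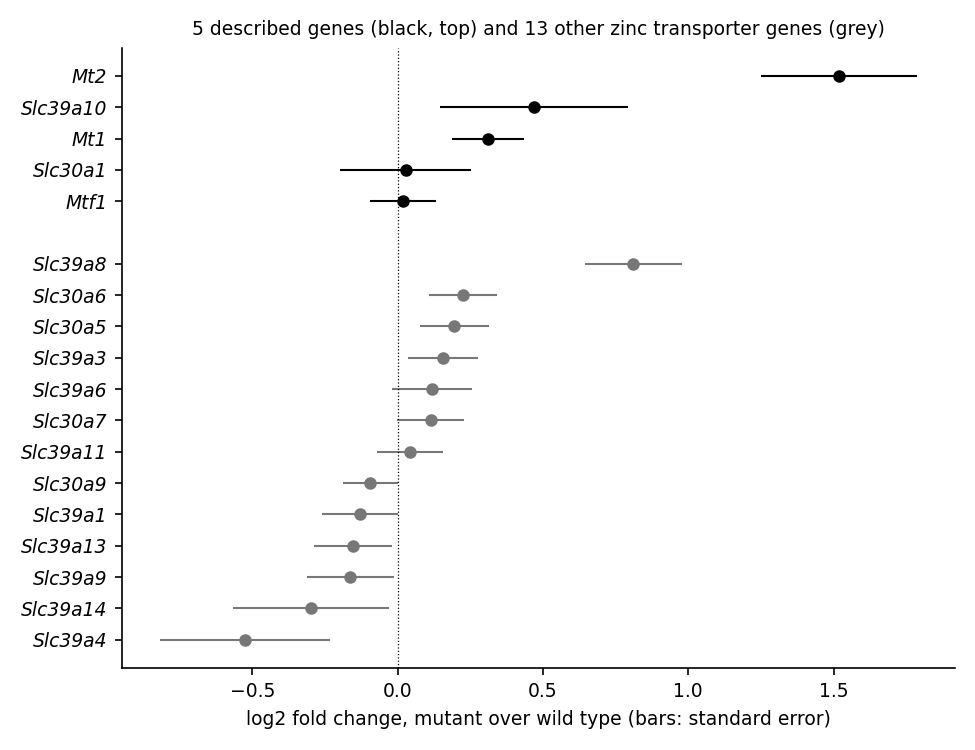
Log2 fold change, mutant over wild type, with its standard error, for the 5 described genes (black, upper block) and the 13 tested zinc transporter genes of the list (grey, lower block), each block sorted by value. Mt2 at 1.52 and Slc39a8 at 0.81 lie farthest above 0, and Slc39a4 at -0.53 farthest below it.

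Among genes linked to MTF1 beyond the metallothioneins, and among genes of copper handling, none was called by edgeR or DESeq2. Over all genes given an adjusted p, edgeR called 0.0694% and DESeq2 0.647%, so 0 calls in lists this short say little. An unadjusted edgeR p under 0.05 was found in 9.85% of all tested genes. Of 9 further MTF1-linked genes 8 were tested, 4 above 0 and 4 below, with a median log2 fold change of 0.0018, and edgeR called 0, with 0 at an unadjusted p under 0.05. The smallest p-values belonged to the LIM-domain gene Csrp1 at 0.16 (SE 0.08), Ndrg1 at -0.26 (SE 0.14) and the myeloid transcription factor gene Cebpa at -0.17 (SE 0.14). Csrp1 had 77.5 to 87.9 CPM in mutants and 71.4 to 76.4 CPM in wild types, without overlap. Of 11 copper genes 10 were tested, 5 above 0 and 5 below, and edgeR called 0, with 0 at an unadjusted p under 0.05. The copper importer gene Slc31a1 had 15.7 ± 2.72 CPM in mutants (SD, n = 5) and 12.5 ± 2.11 CPM in wild types (SD, n = 4), a log2 fold change of 0.32 (SE 0.15). The copper delivery genes Sco1 and Cox11 of cytochrome oxidase assembly were at 0.26 (SE 0.14) and 0.21 (SE 0.13).

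Metallothionein genes are also known to respond to oxidants, glucocorticoids and inflammatory cytokines, and 3 lists of genes were read for these routes. Of the metal and oxidant stress list 7 of 8 genes were tested, 5 above 0 and 2 below, with a median of 0.046. Gclm, the modifier subunit of glutathione synthesis, had 0.28 (SE 0.13), Txnrd1 0.16 (SE 0.09) and the cystine importer gene Slc7a11 -0.36 (SE 0.33). Of the glucocorticoid list 9 of 11 were tested, 2 above 0 and 7 below, with a median of -0.15 and with Klf9 at -0.34 (SE 0.15), Ddit4 at -0.41 (SE 0.22) and Zbtb16 at -0.52 (SE 0.32). Of the acute phase and STAT3 list 9 of 10 were tested, 5 above 0 and 4 below, with a median of 0.035. The transcription factor gene Cebpd was at 129 to 202.7 CPM in mutants and 202.9 to 218 CPM in wild types, with no overlap and a log2 fold change of -0.31 (SE 0.12). The haptoglobin gene Hp was at -0.25 (SE 0.12) and Bcl3 at -0.28 (SE 0.17). In each of these 3 lists edgeR and DESeq2 called 0 genes and 1 gene had an unadjusted p under 0.05, namely Gclm, Klf9 and Cebpd. Over all tested genes the median was 0.0089, and 9.85% had an unadjusted edgeR p under 0.05 in either direction.

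The genes whose levels followed the summed log2 CPM of Mt1 and Mt2 most closely within the groups, among 8504 genes with a mean of at least 5 CPM, were Sptlc2, Adi1, Egln3, Ccdc117 and Smu1. Their Pearson r over the 9 mice, after each group's mean was taken off, lay between 0.946 for Smu1 and 0.977 for Sptlc2. These are the highest values out of 8504, among which the gene at rank 50 had an r of 0.776 and the median was 0.0023. The r with Mt2 alone was 0.871 to 0.951 and that with Mt1 alone 0.0685 to 0.295; since Mt2 varies more on the log scale, it weighs more in the sum. Sptlc2 encodes a subunit of the enzyme that starts sphingolipid synthesis, and Egln3 an oxygen-dependent prolyl hydroxylase. None of the 5 was called between the groups, with edgeR adjusted p-values between 0.478 and 0.830. Wild-type mouse 2, the lowest wild type in Mt2, was also the lowest wild type in Sptlc2 and Adi1, at 45.0 and 29.9 CPM. How far the r values rest on that mouse was not tested.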

How the data were processed

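Libraries were made from polyadenylated RNA by MARS-seq, a 3′-end method adapted to bulk RNA, and sequenced with a NextSeq 500 instrument, according to the labels. The authors deposited a single table of estimated counts per gene, with 18 library columns. Tools named in the submitters' processing notes are Salmon 1.3, bcl2fastq and FastQC, and the build is GRCm38; their role and order, the annotation, the strand setting and the use of molecular identifiers: not given in the sources used here. Values that were not whole made up 11.3%. The first 18 characters of each ID were matched to GENCODE M21, which named 54094 of 54347 IDs.

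The mouse was the replicate, so its libraries were added up and the sums rounded. Library totals ran from 3825500 to 15071673 counts and mouse totals from 11766467 to 25485899. After filterByExpr (minimum count 10) and TMM scaling, 12973 genes entered the quasi-likelihood F-test of edgeR 4.0.16 (R 4.3.3), 2-sided and without covariates, and p was adjusted by Benjamini-Hochberg over all of them. The standard error is the log2 coefficient over the root of F, and 95% intervals of fold changes are normal. Counting intervals are exact Poisson intervals and, like the floor of 3 counts, cover counting error only. Likeness used log2 CPM with a prior count of 2. Of each list, the 3 genes with the smallest p were named (4 for zinc transporters), and others are marked. On simulated counts with known changes the edgeR step was checked. Alternatives were DESeq2 1.42.0, RLE factors, no filter, each library alone, the total count as a covariate and leaving out each mouse. The labels give no pairing of mice across groups, and none was used. The members and lists were chosen with earlier results of these data known.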

Additional observations from a re-analysis of the deposited data

Results flagged for a closer look

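Over 58 sets of a gene in a group, 4 had a mouse farther from the rest of its group than Dixon's 95% limit allows, where chance gives about 1 in 20. For 2 of the 4, Sptlc2 and Adi1, that rate does not apply, because these genes were selected for following Mt1 and Mt2 over the same mice. Mouse 2 is also the wild type lowest in Mt2. The members and the named list genes were chosen on the contrast between these groups, which can favour a small spread within a group. For them the rate is only a rough guide, and no excess over it is read from the 4. Slc30a1 was at 5.87 CPM in mutant 12, against 3.09 to 3.64 CPM in the other 4 mutants. Slc7a11, the cystine importer gene, was at 1.21 CPM in mutant 6, against 0.642 to 0.793 CPM in the other mutants. In wild-type mouse 2, Sptlc2 was at 45.0 CPM against 53.2 to 54.3 CPM in the other wild types, and Adi1 at 29.9 CPM against 36.1 to 36.9 CPM.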

How the results depend on the processing

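The count of called genes over the whole table depended on the setting. It was 9 in edgeR with all mice, 88 in DESeq2, 21 without the low-count filter, 3 in library 2 alone, 0 in library 1 alone and 0 with the log2 total count in the fit, and from 0 to 7 when a mouse was left out (0 without mutant 7, 8, 10 or 12 or wild-type mouse 3 or 4). Of the members, 1 was called in DESeq2 and 1 without the filter, Mt2 both times, and 0 under the 14 other settings. The cause was not tested. The Mt2 log2 fold change stayed above 0 under all 16 settings, from 1.02 in library 1 alone to 2.00 in library 2 alone. Without wild-type mouse 2 it was 1.29. The choice of Mt2 fixes its direction, so this adds no support. The log2 fold change of Mt1 ran from 0.058 in library 2 to 0.59 in library 1, Slc39a10 from 0.16 to 0.70, Mtf1 from -0.07 to 0.14 and Slc30a1 from -0.16 to 0.48, the last with the log2 total count in the fit. Slc7a11 changed sign in library 2 alone, to 0.23. By Spearman's rho, 3 of the 5 genes most like Mt1 and Mt2 stayed in the first 5. Counts of 10 to 133 per mouse limit what Mt2, Slc30a1 and Slc39a10 can show.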
